A study of Mus musculus with 12 samples.

Results

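The genes described are 10 markers of the cells of a blood vessel wall and its surroundings, out of 18876 genes listed with a value above 0 in any library. They were taken by name: Pecam1, Cdh5, Kdr, Cldn5 and Vwf mark endothelial cells, Pdgfrb and Acta2 mark mural cells, Dcn and Lum mark fibroblasts, and Fn1 encodes the matrix protein fibronectin. They were measured by RNA sequencing in primary oligodendrocyte progenitor cells from the brain of wild-type mice, the cells that give rise to the myelinating cells of the central nervous system. In all, 4 groups of 3 libraries each were collected at 12 h. The first, called stattic here, received stattic at 2.5 µM, an inhibitor of the transcription factor STAT3, on top of IL-10 at 10 ng/mL and hemin at 50 µM. The second, called IL-10 here, received hemin at the same dose and IL-10 at 10 ng/mL, a cytokine that signals through STAT3. The third received 50 µM hemin, the iron-containing porphyrin released from haemoglobin, and the fourth received the DMSO vehicle. Because all 3 treated groups contain hemin, no group shows IL-10 or stattic without it. The labels do not say whether the 3 libraries of a group came from separate cultures, so the spread that p-values are set against may be technical.

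Endothelial cells line vessels and are joined by VE-cadherin and PECAM1, and they respond to VEGF through the receptor encoded by Kdr. Mural cells, the pericytes and smooth muscle cells, sit on the outside of the endothelium, depend on PDGF-B acting on PDGF receptor beta, and contract through actin and myosin. Fibroblasts of the meninges and of large brain vessels secrete collagens and small leucine-rich proteoglycans such as decorin and lumican. None of the 10 genes is a defining marker of oligodendrocyte progenitor cells. In bulk samples such as these, fewer cells of a type and less RNA per cell cannot be told apart.

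The libraries held 9404448 to 10266653 expected counts. CPM are the expected counts scaled to library size. Summed CPM of 9 progenitor markers were 895 to 2181 in stattic libraries and 1430 to 2752 in IL-10 libraries. They were 1959 to 2881 in hemin libraries, against 4756 to 6849 in vehicle libraries. Of the 9, 3 were lower in hemin than in vehicle at an adjusted p under 0.05, beside 9.15% of all genes tested. That count was 1 without hemin replicate 1 or 2 or vehicle replicate 1 or 3, and 5 without stattic replicate 1 or 3. Hemin replicate 1 and stattic replicate 3 stood apart in their trend with transcript length: the median log2 difference from vehicle was 0.47 and 1.13 for the genes with the shortest transcripts and -0.46 and -0.86 for those with the longest, each being 1 of 5 equal bins. Hemin replicate 1 also stood apart in the mural and fibroblast genes, as given below for each gene. Gfap, the intermediate filament gene of astrocytes, varied widely inside groups, with 27546, 23526 and 382 counts in the vehicle libraries.

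Promoter sequences were at hand for Kdr, Cldn5 and Acta2, and are shown here. With hemin, Kdr had a log2 fold change of 2.41 at an adjusted p of 0.0263 in edgeR. Acta2 had a similar value of 2.58 but did not pass the test, at an adjusted p of 0.0529. Cldn5 stayed near 0 counts. Whether Kdr and Acta2 differ in response was not tested. Each is the 250 bases upstream of the RefSeq gene start in GRCm38.p6, printed 5′ to 3′ on the strand of the gene, with motif matches in capitals. The sources used here do not name the build behind the deposited values. The windows are chr5:75978456-75978705 on the minus strand for Kdr, chr16:18776597-18776846 on the plus strand for Cldn5 and chr19:34255374-34255623 on the minus strand for Acta2.
Kdr: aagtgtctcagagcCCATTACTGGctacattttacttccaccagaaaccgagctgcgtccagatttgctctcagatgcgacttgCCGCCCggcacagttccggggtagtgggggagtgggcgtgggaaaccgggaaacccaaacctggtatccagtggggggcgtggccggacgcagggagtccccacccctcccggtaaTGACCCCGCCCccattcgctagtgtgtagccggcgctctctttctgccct
Cldn5: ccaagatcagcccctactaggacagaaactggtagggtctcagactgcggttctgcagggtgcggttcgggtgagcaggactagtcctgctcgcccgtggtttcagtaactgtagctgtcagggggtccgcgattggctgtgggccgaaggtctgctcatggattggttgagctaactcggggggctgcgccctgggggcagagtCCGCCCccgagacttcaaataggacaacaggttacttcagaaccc
Acta2: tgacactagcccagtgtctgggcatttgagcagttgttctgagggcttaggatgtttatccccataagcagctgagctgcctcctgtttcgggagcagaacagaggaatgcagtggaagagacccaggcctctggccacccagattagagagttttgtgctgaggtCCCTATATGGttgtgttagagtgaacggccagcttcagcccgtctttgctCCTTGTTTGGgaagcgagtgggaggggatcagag
The motifs searched on both strands were TATAAA (the TATA box), TGANTCA (AP-1), TGACNNNGC (the antioxidant response element of NRF2), GAANNTTC (a heat shock element core), GGGCGG (SP1), the CArG box of serum response factor, and a CArG-like form in which 1 of the central bases may be any base. Acta2 held 2 CArG-like matches, at 84 to 75 and 34 to 25 bases upstream of the start. Kdr held 1 CArG-like match at 236 to 227 bases upstream, 1 TGACNNNGC match at 50 to 42 bases, and GGGCGG on the reverse strand at 166 to 161 and 45 to 40 bases. Its match at 45 to 40 bases overlaps the TGACNNNGC match. Cldn5 held only GGGCGG, on the reverse strand at 45 to 40 bases. Of 32851 windows of the same length, 8.59% held the CArG-like form, 1.47% the strict CArG box, 10.2% TGACNNNGC, 32.7% GGGCGG, 12.4% TATAAA, 6.75% TGANTCA and 6.69% GAANNTTC. A match describes the letters and is not evidence of binding.

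The endothelial genes were compared first between hemin and vehicle. Pecam1, Cdh5 and Kdr were higher in every hemin library than in every vehicle library and passed the test, Vwf did not pass it, and Cldn5 was almost undetected in all groups. Pecam1 had the largest difference and Kdr the smallest of the 3 that passed. In all, 4 of the 10 genes rose with hemin, the fourth being Dcn, and none fell, while 20.9% of the 13967 genes tested were called in either direction, 11.7% higher and 9.15% lower. The count of the 10 genes called was 2 when hemin replicate 2 was left out, and likewise for vehicle replicates 2 and 3. It was 4 without hemin replicate 1 and stattic replicate 3 together. In 7 of the 10 genes every hemin library exceeded every vehicle library, against 25.6% of all genes tested. Pecam1, Cdh5, Dcn and Lum had fewer than 10 counts in every vehicle library. They passed the filter on low counts only through libraries with hemin and could hardly have been called lower. For these genes the shares over all genes are not a like comparison.

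Pecam1 encodes an adhesion molecule of endothelial junctions that is also found on platelets and leukocytes. It had 137, 320 and 84.3 expected counts in stattic libraries, 61.2, 162 and 237 in IL-10 libraries and 118, 247 and 287 in hemin libraries, against 5, 4 and 3 in vehicle libraries. All 9 libraries that received hemin were above all vehicle libraries by more than an order of magnitude. Its level averaged 21.9 ± 9.02 CPM in hemin libraries and 0.372 ± 0.0893 CPM in vehicle libraries (SD, n = 3 each). This gave a log2 fold change of 5.83 ± 0.70 (SE), with a 95% confidence interval of 4.31 to 7.36 and an adjusted p of 0.000462. It remained called whichever of the 12 libraries was left out, with log2 fold changes of 5.58 to 6.13. Pecam1 was the only gene of the 10 whose expected counts were not whole numbers, in all 9 libraries with hemin. Counts are summed over the transcripts of a gene, so fractions arise where a read is shared out between genes. Which other genes shared reads with Pecam1, and how much this adds to its counts, was not tested.

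Cdh5 encodes VE-cadherin, the adherens junction cadherin of endothelium. It had 9, 6 and 108 expected counts in stattic libraries, 12, 12 and 66 in IL-10 libraries and 53, 45 and 44 in hemin libraries, against 2, 1 and 7 in vehicle libraries. The hemin libraries were close to each other, whereas replicate 3 was far above the others in both the stattic and the IL-10 group. Cdh5 averaged 4.76 ± 0.442 CPM in hemin libraries and 0.315 ± 0.309 CPM in vehicle libraries (SD, n = 3 each), a log2 fold change of 3.88 ± 1.21 (SE) at an adjusted p of 0.0395. The call was lost when any 1 hemin or vehicle library was left out, with adjusted p-values of 0.0625 to 0.124.

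Kdr encodes VEGF receptor 2, the main signalling receptor for VEGF-A. It had 60, 52 and 17 expected counts in stattic libraries, 154, 91 and 48 in IL-10 libraries and 37, 93 and 33 in hemin libraries, against 20, 7 and 6 in vehicle libraries. The highest library was in the IL-10 group, and stattic replicate 3 was the lowest of the 9 libraries with hemin, just above vehicle replicate 1 in CPM. Hemin over vehicle gave a log2 fold change of 2.41 ± 0.68 (SE), with a 95% confidence interval of 0.94 to 3.89 and an adjusted p of 0.0263. Leaving out vehicle replicate 2 gave an adjusted p of 0.0954, leaving out vehicle replicate 3 gave 0.0995 and leaving out hemin replicate 2 gave 0.125.

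Vwf encodes von Willebrand factor, the clotting protein stored in endothelial granules. It had 29, 39 and 38 expected counts in stattic libraries, 41, 39 and 25 in IL-10 libraries and 32, 30 and 49 in hemin libraries, against 34, 7 and 23 in vehicle libraries. The groups overlapped because vehicle replicate 1 lay inside the range of every other group. The log2 fold change of hemin over vehicle was 0.90 ± 0.51 (SE), with a 95% confidence interval of -0.21 to 2.00 and an adjusted p of 0.227. Cldn5 encodes claudin 5, the tight junction protein of the blood-brain barrier. Its summed count over 3 libraries was 2 in the stattic group, 2 in the IL-10 group and 1 in the hemin group, against 3 in the vehicle group, so no fold change is given and it did not pass the filter on low counts.

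**Figure D1:**
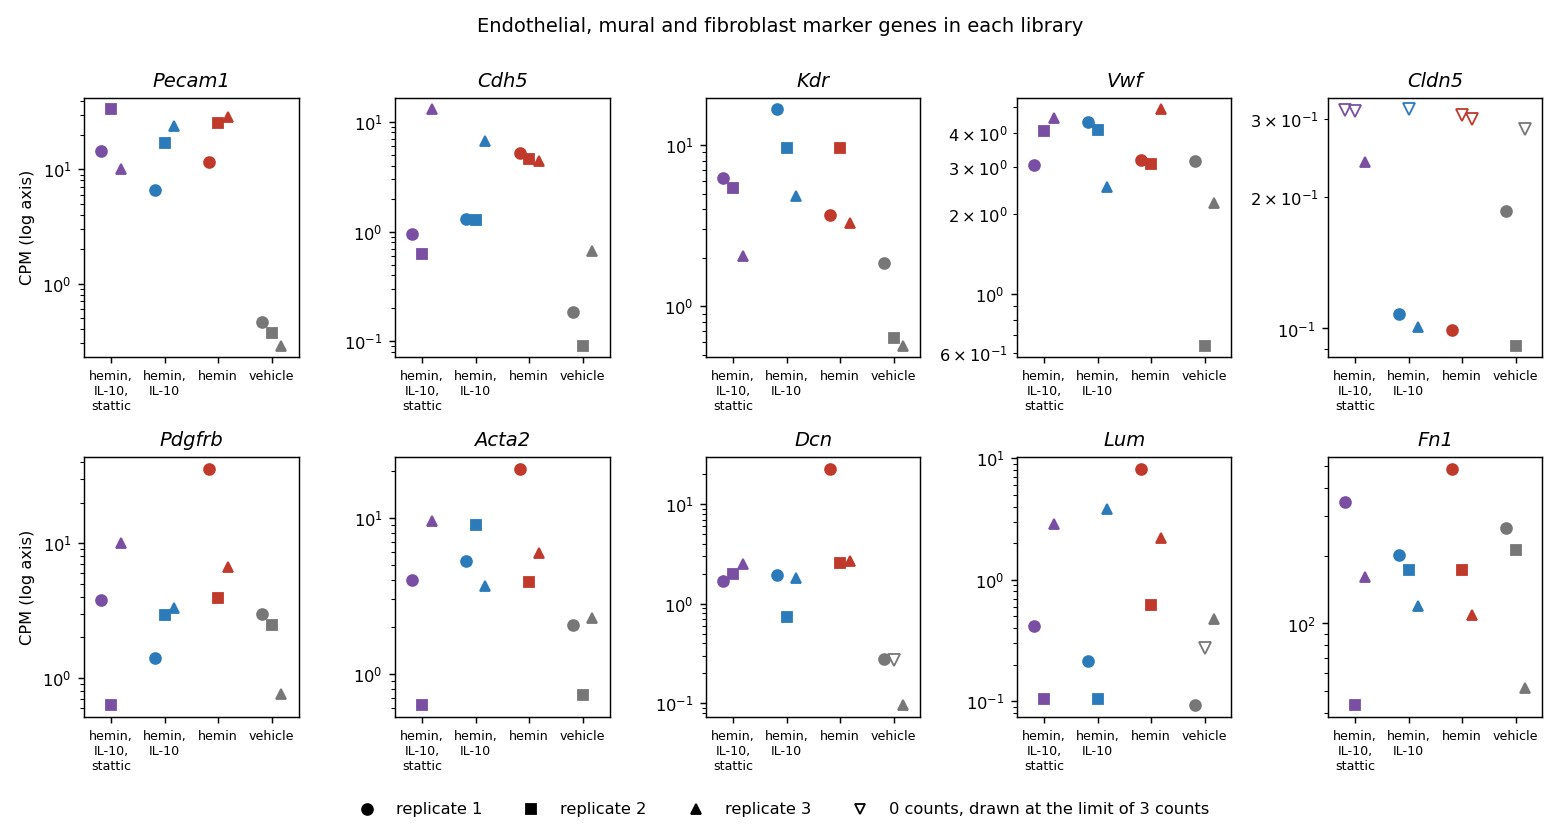
CPM of each of the 10 genes in each library on a log axis, by group, with 1 symbol for each replicate number and open triangles for 0 counts, drawn at the limit of 3 counts. Pecam1 in vehicle libraries (mean 0.372 CPM) lies below every library with hemin, and hemin replicate 1 is the highest library for Pdgfrb, Acta2, Dcn, Lum and Fn1.

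Of 20 other endothelial markers, 12 passed the filter on low counts, 5 were higher in hemin than in vehicle and 0 were lower, beside 11.7% of all genes tested called higher. The count was 2 without hemin replicate 1 or vehicle replicate 1 and 3 without hemin replicate 2 or vehicle replicate 2 or 3. The median difference in log2(CPM + 0.5) over the 20 genes was 0.69, and 0.48 without hemin replicate 1, beside 0.09 and 0.08 over all genes listed. Esam, an endothelial adhesion molecule, had 10, 25 and 25 counts in stattic libraries, 11, 20 and 33 in IL-10 libraries and 64, 36 and 18 in hemin libraries, against 2, 2 and 0 in vehicle libraries. It rose with hemin by a log2 fold change of 4.86 ± 0.83 (SE) at an adjusted p of 0.00300. Tek, the angiopoietin receptor TIE2, had 34, 53 and 9 counts in stattic libraries, 16, 34 and 19 in IL-10 libraries and 11, 48 and 35 in hemin libraries, against 1, 3 and 0 in vehicle libraries. Its log2 fold change was 4.54 ± 0.93 (SE) at an adjusted p of 0.00706, and both genes stayed called in all 12 fits that left out 1 library. Both had at most 3 counts in a vehicle library. They passed the filter only through libraries with hemin and could hardly be called lower. The same holds for genes of the lists below with vehicle counts as low, so 0 lower calls carry little weight for such genes. Eng, a co-receptor for TGF-beta family ligands, had a log2 fold change of 2.79 at an adjusted p of 0.0160, which became 0.0656 without hemin replicate 1, where the log2 fold change was 1.80, and 0.0666 without vehicle replicate 1. Slc2a1, the glucose transporter of the blood-brain barrier that many other cells also use, had a log2 fold change of 2.34 at an adjusted p of 0.0183 and lost the call in 5 of the 12 fits.

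Among the rest of the list, 5 genes that define endothelium had 0 to 15 counts in the hemin and vehicle libraries. Ly6c1 had 1 count in 1 of the 3 hemin libraries and 0 in the other two, against 0 in all vehicle libraries. Sox17, an endothelial transcription factor, had 0 counts in all hemin and vehicle libraries. Tie1, an endothelial receptor tyrosine kinase, had 2, 0 and 0 counts in hemin libraries, against 0 in all vehicle libraries. Emcn, an endothelial sialomucin, had 15, 4 and 1 counts in hemin libraries, against 0, 0 and 1 in vehicle libraries. Icam2 had 1, 4 and 2 counts in hemin libraries, against 0 in all vehicle libraries. Ly6c1 and Tie1 had too few counts to show a direction. Summed over the 3 libraries of a group, Emcn had 20 against 1 and Icam2 had 7 against 0. Erg and Slco1a4, named here after their values were seen, had 7 against 1 and 5 against 3. The ratio for Slco1a4 was 1.80 with a 95% counting interval of 0.350 to 11.6. Another 3 genes of the list, likewise named after their values were seen, had more counts in hemin than in vehicle. They were picked, the unnamed genes of the list are not given, and the share over all genes was not computed. Abcb1a, a drug efflux transporter of the blood-brain barrier, had 27.6, 29.7 and 2.11 expected counts in hemin libraries, against 3.03, 0 and 0 in vehicle libraries, and was not called, at an adjusted p of 0.0946. Robo4 had 0, 8 and 8 counts in hemin libraries, against 0, 1 and 0 in vehicle libraries. Cd34 had 14, 6 and 7 counts in hemin libraries, against 3, 2 and 1 in vehicle libraries, a log2 fold change of 2.20 at an adjusted p of 0.0447, and lost the call in 8 of the 12 fits.

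Of 15 genes of VEGF and angiopoietin signalling, 13 passed the filter, and 2 were higher in hemin than in vehicle, Tek and the Notch ligand gene Dll4, beside 11.7% of all genes tested. The count was 1 without hemin replicate 2 or without any 1 vehicle library. Dll4 had 46, 61 and 55 counts in hemin libraries, against 18, 22 and 14 in vehicle libraries, a log2 fold change of 1.69 at an adjusted p of 0.0301. Vegfa, the principal ligand of the Kdr product, had 1431, 1455 and 1160 counts in hemin libraries, against 569, 813 and 511 in vehicle libraries, and did not pass the test. Angpt2, a ligand of TIE2, had 149, 176 and 34 counts in hemin libraries, against 28, 46 and 64 in vehicle libraries, and did not pass it either.

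Both mural genes were higher in every hemin library than in every vehicle library, and neither passed the test. Pdgfrb encodes the receptor through which PDGF-B recruits pericytes. It had 36, 6 and 84 expected counts in stattic libraries, 13, 28 and 33 in IL-10 libraries and 358, 38 and 67 in hemin libraries, against 32, 27 and 8 in vehicle libraries. Hemin replicate 1 held 35.5 CPM, whereas the other 8 libraries with hemin held 0.629 to 10.1 CPM. The log2 fold change of hemin over vehicle was 2.89 ± 0.97 (SE), with a 95% confidence interval of 0.78 to 4.99 and an adjusted p of 0.0530. Without hemin replicate 1 it was 1.34 at an adjusted p of 0.307, and without stattic replicate 2 or 3 the adjusted p was 0.0297 or 0.0346.

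Acta2 encodes smooth muscle alpha-actin, whose coding sequence is close to that of other actins. Its expected counts were whole numbers in all 12 libraries, and whether reads of other actins were counted to it was not tested. It had 38, 6 and 79 expected counts in stattic libraries, 49, 85 and 36 in IL-10 libraries and 207, 38 and 59 in hemin libraries, against 22, 8 and 24 in vehicle libraries. All IL-10 and hemin libraries were above all vehicle libraries, and stattic replicate 2 was below them. Hemin over vehicle gave a log2 fold change of 2.58 ± 0.87 (SE), with a 95% confidence interval of 0.70 to 4.46 and an adjusted p of 0.0529. Leaving out hemin replicate 1 gave 1.53 at an adjusted p of 0.225, and without stattic replicate 2 or 3 the adjusted p was 0.0235 or 0.0320.

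Of 17 other mural markers, 13 passed the filter, 7 were higher in hemin than in vehicle and 0 were lower, beside the same 11.7% over all genes. The count was 4 without hemin replicate 1 or vehicle replicate 1 or 2 and 3 without vehicle replicate 3. The median difference in log2(CPM + 0.5) over the 17 genes was 1.41, and 0.55 without hemin replicate 1. Myh11, smooth muscle myosin heavy chain, had 21, 43 and 23 counts in hemin libraries, against 2, 0 and 0 in vehicle libraries, a ratio of 47.0 with a 95% counting interval of 12.6 to 394. Anpep, an aminopeptidase of pericytes, had 34, 24 and 31 counts in hemin libraries, against 0, 4 and 0 in vehicle libraries, a log2 fold change of 4.46 at an adjusted p of 0.0050. Des, the muscle intermediate filament desmin, had 34, 14 and 20 counts in hemin libraries, against 0, 4 and 0 in vehicle libraries, a log2 fold change of 4.07 at an adjusted p of 0.0111. These 3 genes stayed called whichever library was left out. Without vehicle replicate 2, which held all vehicle counts of Anpep and Des, the fitted values of these 2 depend on the prior count. The same holds for Myh11 without vehicle replicate 1. With at most 4 counts in a vehicle library, these 3 genes could hardly be called lower. Mcam, an adhesion molecule of mural and endothelial cells, had a log2 fold change of 1.48 at an adjusted p of 0.0158 and was no longer called when hemin replicate 3, or vehicle replicate 1 or 3, was left out.

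The pericyte genes Kcnj8, Abcc9 and Vtn had most of their hemin counts in a single library. Kcnj8, a subunit of the pericyte potassium channel, had 55, 5 and 3 counts in hemin libraries, against 0, 1 and 0 in vehicle libraries. Abcc9, its partner subunit, had 72, 5 and 2 counts in hemin libraries, against 1, 1 and 3 in vehicle libraries. Vtn, which encodes vitronectin, had 168, 14 and 3 counts in hemin libraries, against 2, 0 and 0 in vehicle libraries. For these 3 genes that library was hemin replicate 1. Rgs5, a regulator of G protein signalling abundant in pericytes, had 198, 116 and 20 counts in hemin libraries, against 157, 59 and 12 in vehicle libraries, and the groups overlapped.

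Among 4 PDGF ligand genes and the alpha receptor, 4 passed the filter. Beside 11.7% of all genes tested called higher, 1 gene of these 4 was higher in hemin than in vehicle. It was Pdgfb, the ligand of PDGF receptor beta, with 20, 9 and 9 counts in hemin libraries, against 4, 0 and 2 in vehicle libraries, a log2 fold change of 2.69 at an adjusted p of 0.0263. The call was lost, leaving 0, without hemin replicate 1 or 2 or vehicle replicate 2 or 3, and 1 gene was lower without IL-10 replicate 2 or 3 or stattic replicate 1. Of 19 actin contractile genes and targets of serum response factor, all 19 passed the filter, 7 were higher and 0 were lower, again beside 11.7% over all genes. The count was 4 without hemin replicate 1 or vehicle replicate 2 or 3. Their median difference in log2(CPM + 0.5) was 0.73, and 0.74 without hemin replicate 1. Cnn1, Tagln and Myl9 are also in the list of other mural markers. Ccn1, a matrix-associated signalling protein, had 1315, 1426 and 2068 counts in hemin libraries, against 108, 149 and 103 in vehicle libraries, a log2 fold change of 3.85 at an adjusted p of 0.000246. Ccn2, a related protein, had 257, 143 and 77 counts in hemin libraries, against 2, 5 and 9 in vehicle libraries, a log2 fold change of 4.97 at an adjusted p of 0.00818. Acta1, skeletal muscle alpha-actin, had 11, 21 and 24 counts in hemin libraries, against 1, 1 and 0 in vehicle libraries, a ratio of 30.3 with a 95% counting interval of 7.99 to 256. These 3 genes stayed called in all fits that left out 1 library, and of the 3 only Ccn2 had its highest hemin count in replicate 1.

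Both fibroblast genes were higher in every hemin library than in every vehicle library, and Dcn passed the test. Dcn encodes decorin, a proteoglycan that binds collagen fibrils and TGF-beta. It had 16, 19 and 21 expected counts in stattic libraries, 18, 7 and 18 in IL-10 libraries and 227, 25 and 27 in hemin libraries, against 3, 0 and 1 in vehicle libraries. All 9 libraries with hemin were above all vehicle libraries, and hemin replicate 1, with 22.5 CPM, stood above the other 8, which held 0.737 to 2.71 CPM. Dcn rose with hemin by a log2 fold change of 6.08 ± 1.09 (SE), with a 95% confidence interval of 3.71 to 8.45 and an adjusted p of 0.00366. Leaving out hemin replicate 1 gave 4.27 at an adjusted p of 0.00606, and Dcn stayed called in all 12 fits that left out 1 library.

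Lum encodes lumican, a proteoglycan that spaces collagen fibrils. It had 4, 1 and 24 expected counts in stattic libraries, 2, 1 and 38 in IL-10 libraries and 82, 6 and 22 in hemin libraries, against 1, 0 and 5 in vehicle libraries. Replicate 3 was the highest library of the stattic, IL-10 and vehicle groups, and replicate 1 was the highest of the hemin group. The log2 fold change of hemin over vehicle was 4.20 ± 1.57 (SE), with a 95% confidence interval of 0.78 to 7.61 and an adjusted p of 0.0768. Without hemin replicate 1 it was 2.83 at an adjusted p of 0.255, and without IL-10 replicate 3 the adjusted p was 0.0432. Dcn and Lum are neighbours in the RefSeq gene table, where Lum is followed by Kera, another small leucine-rich proteoglycan gene. Kera was listed in no library, and Epyc, a further member of that family, had at most 1 count in any library.

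**Figure D2:**
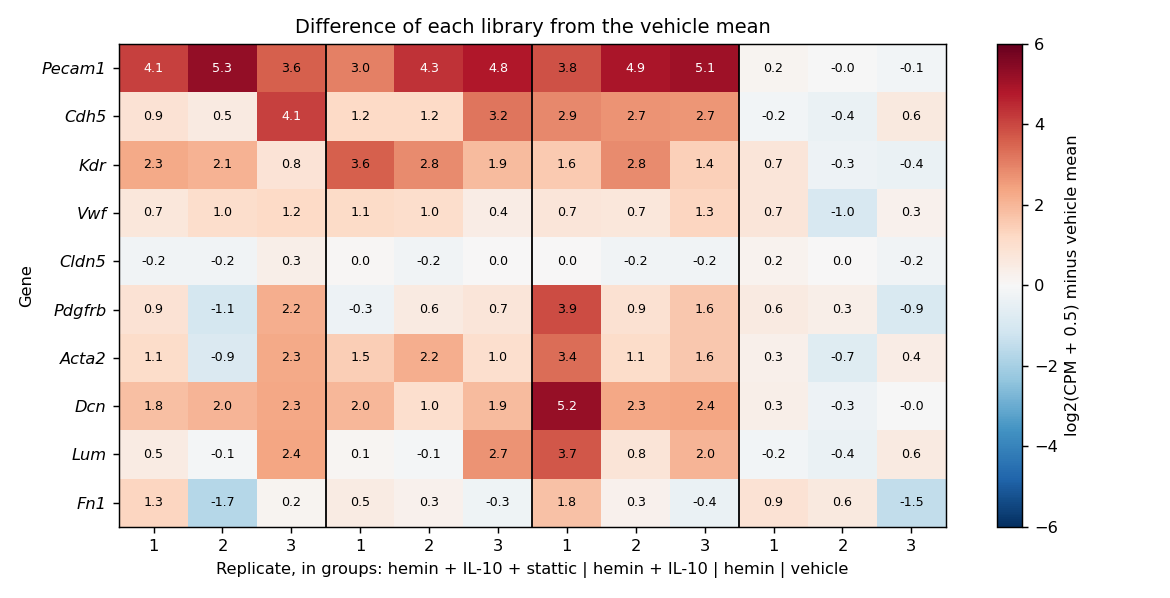
Difference of log2(CPM + 0.5) in each library (columns, replicates 1 to 3 of each group) from the vehicle mean, for each of the 10 genes (rows), with the value printed in each cell. Dcn differed by 5.2 in hemin replicate 1 and by 2.3 and 2.4 in hemin replicates 2 and 3, whereas Pecam1 differed by 3.8, 4.9 and 5.1.

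Of 18 other fibroblast markers, 11 passed the filter, 4 were higher in hemin than in vehicle and 0 were lower, beside 11.7% of all genes called higher. The count was 2 without hemin replicate 1 or vehicle replicate 2, 1 without vehicle replicate 1 and 0 without vehicle replicate 3, and 1 gene was lower without IL-10 replicate 2 or 3 or stattic replicate 1. The median difference in log2(CPM + 0.5) over the 18 genes was 0.76, and 0.49 without hemin replicate 1. Col3a1, the chain of type III collagen, had 76, 29 and 360 counts in stattic libraries, 40, 65 and 284 in IL-10 libraries and 2095, 220 and 230 in hemin libraries, against 36, 5 and 17 in vehicle libraries. Its log2 fold change was 5.54 ± 1.33 (SE) at an adjusted p of 0.0138, which became 0.0535 without vehicle replicate 2 and 0.0558 without vehicle replicate 3. The type I collagen genes Col1a1 and Col1a2 had log2 fold changes of 3.60 and 4.64 at adjusted p-values of 0.0289 and 0.0147, and Postn, which encodes periostin, had 3.81 at an adjusted p of 0.0280. Each of the 3 lost the call in 3 or 4 of the 12 fits. All 4 genes were highest in hemin replicate 1. Without that library the log2 fold change was 3.65 for Col3a1, 3.20 for Col1a2, 2.50 for Col1a1 and 1.61 for Postn, and Col1a1 and Postn were then not called.

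Of 10 small leucine-rich proteoglycan genes, 9 were listed in the files and 6 passed the filter. Of these, 2 were higher in hemin than in vehicle, Ecm2 and Aspn, beside 11.7% of all genes tested called higher. The median difference in log2(CPM + 0.5) was 1.17 over the 9 genes, and 0.73 without hemin replicate 1. Over all genes listed these medians were 0.09 and 0.08. Ecm2 had 44.0, 140 and 137 counts in hemin libraries, against 7, 7.42 and 9 in vehicle libraries, a log2 fold change of 3.90 at an adjusted p of 0.00380. Aspn, which encodes asporin, had 11, 28 and 21 counts in hemin libraries, against 0 in all vehicle libraries, and was at least 21.6-fold higher when the vehicle group is set at 3 counts over the group. Both stayed called whichever library was left out, and hemin replicate 1 was the lowest hemin library for both. Bgn, which encodes biglycan, had 1434, 92 and 124 counts in hemin libraries, against 172, 248 and 27 in vehicle libraries, and did not pass the test.

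Fn1 was by far the most abundant of the 10 genes and its groups overlapped. Fibronectin is laid down by fibroblasts, mural cells and astrocytes and binds cells through integrins. Fn1 had 3298, 413 and 1344 expected counts in stattic libraries, 1878, 1650 and 1187 in IL-10 libraries and 4906, 1680 and 1091 in hemin libraries, against 2855, 2322 and 543 in vehicle libraries. The spread inside the stattic, hemin and vehicle groups was larger than any difference between group means. The log2 fold change of hemin over vehicle was 0.54 ± 0.73 (SE), with a 95% confidence interval of -1.05 to 2.13 and an adjusted p of 0.636, and it was -0.34 without hemin replicate 1. Of 15 fibronectin receptors and matrix partners, all 15 passed the filter, 3 were higher in hemin and 0 were lower, beside 11.7% of all genes tested called higher. The count was 1 without hemin replicate 1 or vehicle replicate 2 or 3. Thbs1, which encodes thrombospondin 1, had 1083, 1319 and 606 counts in hemin libraries, against 18, 24 and 16 in vehicle libraries, a log2 fold change of 5.80 ± 0.64 (SE) at an adjusted p of 0.000240, and it stayed called in all 12 fits. The crosslinking enzyme genes Tgm2 and Lox had log2 fold changes of 3.21 and 3.93, both at an adjusted p of 0.0209, and were no longer called when hemin replicate 1, or vehicle replicate 2 or 3, was left out. Without hemin replicate 1 their log2 fold changes were 1.85 and 2.66, and without vehicle replicate 1 that of Lox was 6.37. Itga5 and Itgb1, the 2 chains of the main fibronectin receptor, were not called.

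**Figure D3:**
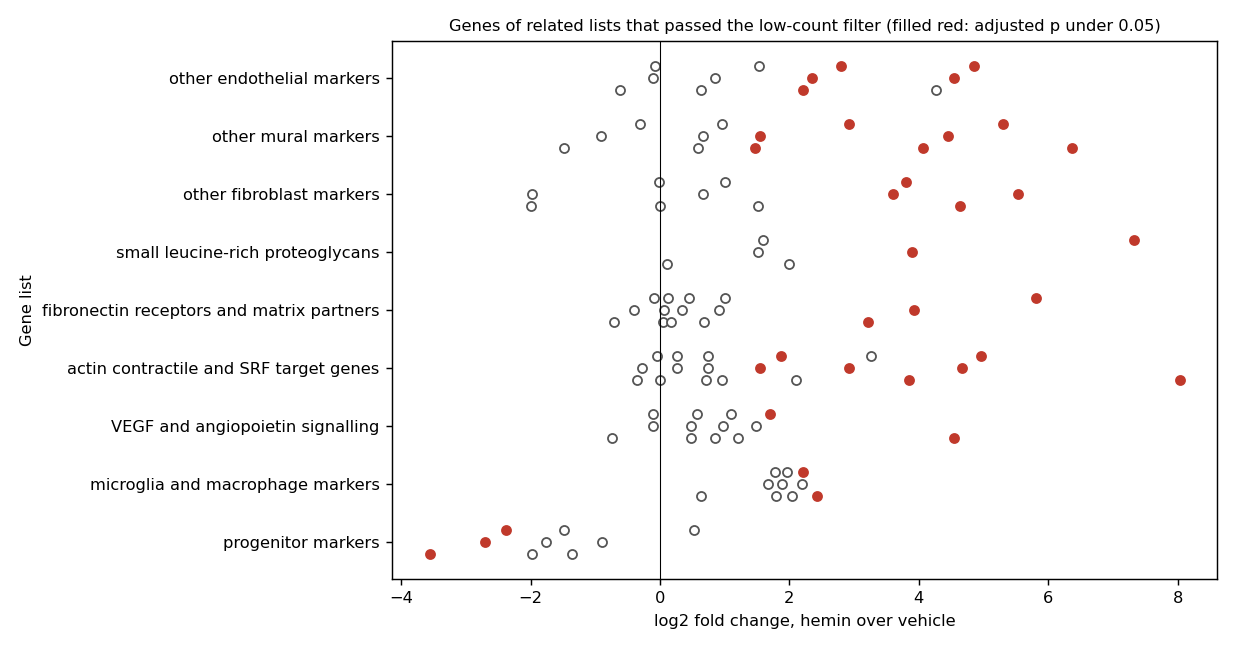
Log2 fold change of hemin over vehicle for the genes of 9 lists that passed the filter on low counts, 1 point a gene, filled red where the adjusted p was under 0.05. Of the points shown, 5 other endothelial, 7 other mural and 4 other fibroblast markers are filled on the right of 0, and 3 progenitor markers are filled on the left.

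The comparison of IL-10 with hemin asks what the cytokine changed in hemin-treated cells. None of the 10 genes was called, and 0 of the 13967 genes tested were called (0.0%) by edgeR, with 337 genes (2.41%) at an unadjusted p under 0.05 and 3 genes (0.0215%) called by DESeq2. With the replicate number as a block, 1 gene (0.00716%) was called, none of the 10. Of the 10 genes, 2 had an unadjusted p under 0.05, Dcn and Pdgfrb, and in both every IL-10 library was below every hemin library, as in 5.08% of all genes tested. Dcn averaged 1.5 ± 0.66 CPM in IL-10 libraries and 9.26 ± 11.5 CPM in hemin libraries (SD, n = 3 each), a log2 fold change of -2.62 with a 95% confidence interval of -4.45 to -0.79 and an adjusted p of 0.999. Pdgfrb averaged 2.56 ± 1.02 CPM in IL-10 libraries and 15.4 ± 17.5 CPM in hemin libraries, a log2 fold change of -2.58 with a 95% confidence interval of -4.66 to -0.50 and an adjusted p of 0.999. Without hemin replicate 1 these values were -0.80 and -1.04. The largest positive value was that of Kdr, at 0.91 with a 95% confidence interval of -0.42 to 2.24. Pecam1 differed by -0.47 with a 95% confidence interval of -1.60 to 0.66, and Vwf by -0.01 with an interval of -1.09 to 1.06. These fold changes and intervals come from the fit without the replicate block. With the block, Cdh5 moved from -0.62 to -1.37 and Lum from -1.38 to -2.24. Dcn was then -2.18 and Pdgfrb -2.15, and Acta2 moved from -0.76 to -0.35. No gene of the other endothelial, mural or fibroblast lists was called.

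The comparison of stattic with IL-10 asks what inhibition of STAT3 changed when hemin and the cytokine were present. None of the 10 genes was called or had an unadjusted p under 0.05, and 0 of 13967 genes (0.0%) were called by edgeR and 0 by DESeq2, with 523 genes (3.74%) at an unadjusted p under 0.05 in edgeR. The smallest unadjusted p belonged to Kdr, which averaged 4.59 ± 2.25 CPM in stattic libraries and 10.4 ± 5.92 CPM in IL-10 libraries (SD, n = 3 each). Its log2 fold change was -1.17 with a 95% confidence interval of -2.51 to 0.18 and an adjusted p of 0.921, and the groups overlapped. Pecam1 differed by 0.29 with a 95% confidence interval of -0.84 to 1.41. For Cdh5 the interval ran from -1.52 to 2.80, for Lum from -3.25 to 2.60 and for Fn1 from -1.44 to 1.74. No gene of the other endothelial, mural or fibroblast lists was called.

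**Figure D4:**
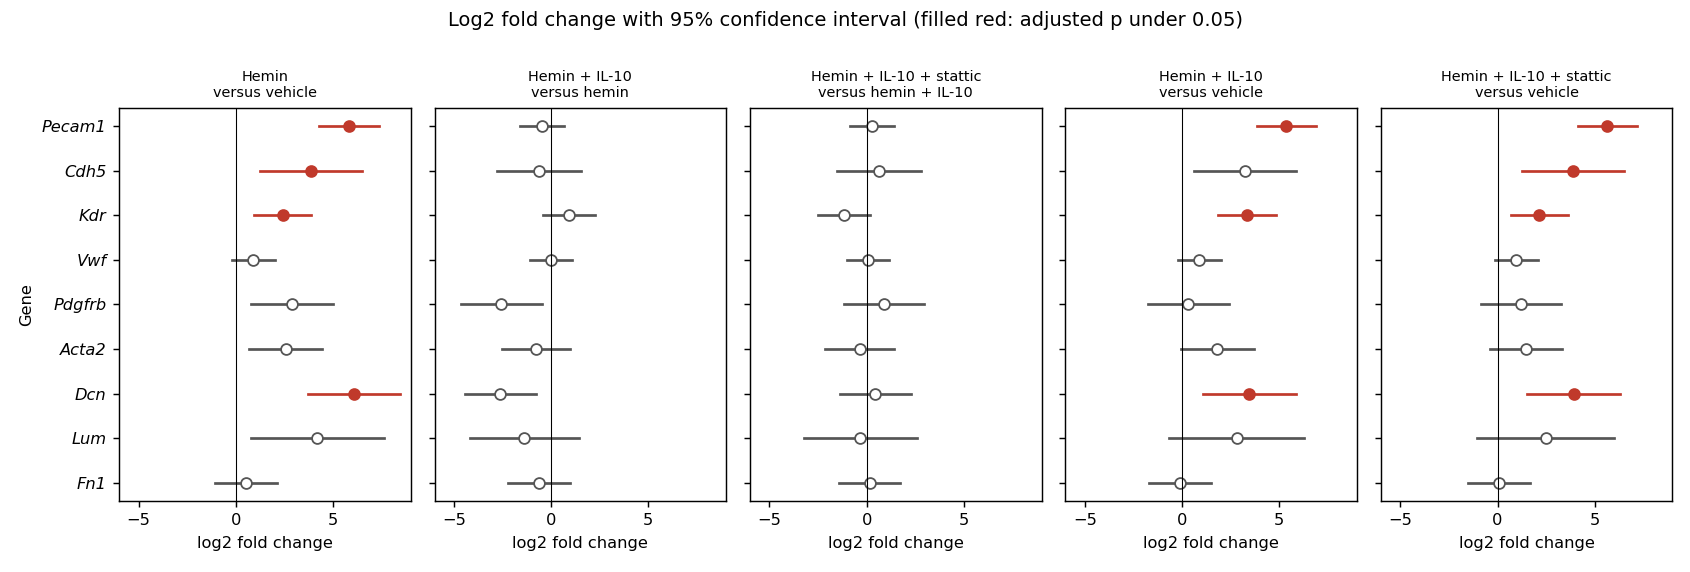
Log2 fold change with its 95% confidence interval for the 9 genes that passed the filter on low counts (rows), in each of the 5 comparisons (panels), filled red where the adjusted p was under 0.05. The filled points lie in the 3 comparisons with vehicle, and Pecam1 is filled in each of them (5.83, 5.37 and 5.65).

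The 2 remaining comparisons set IL-10 and stattic against the same vehicle libraries that served the hemin comparison, so the 3 share their controls. The limit on lower calls of Pecam1, Cdh5, Dcn and Lum holds here too. In IL-10 against vehicle, 3 of the 10 genes rose and 0 fell, beside 21.0% of all genes called, 12.1% higher and 8.81% lower. Pecam1 had a log2 fold change of 5.37 ± 0.70 (SE) at an adjusted p of 0.000818, and Kdr had 3.32 ± 0.69 at 0.00745. Both stayed called in all 12 fits that left out 1 library. Dcn had 3.46 ± 1.11 (SE) at an adjusted p of 0.0443 and lost the call in 7 of the 12 fits, at adjusted p-values of 0.0525 to 0.125. Cdh5 had 3.25 at an adjusted p of 0.0735, which became 0.0480 without stattic replicate 2 and 0.0141 without stattic replicate 3. Acta2 was higher in every IL-10 library than in every vehicle library, at a log2 fold change of 1.81 and an adjusted p of 0.151. Lum had 2.82 at an adjusted p of 0.229, Vwf 0.88 at 0.237, Pdgfrb 0.31 at 0.851 and Fn1 -0.09 at 0.944.

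In stattic against vehicle, 4 of the 10 genes rose and 0 fell, beside 24.9% of all genes called, 14.7% higher and 10.2% lower. The count was 1 without vehicle replicate 2 or 3. Pecam1 had a log2 fold change of 5.65 ± 0.70 (SE) at an adjusted p of 0.000625 and stayed called in all 12 fits. Dcn had 3.92 ± 1.10 (SE) at an adjusted p of 0.0235, which became 0.0763 without vehicle replicate 2 and 0.0790 without vehicle replicate 3. Cdh5 had 3.89 ± 1.21 (SE) at an adjusted p of 0.0352, and without stattic replicate 3, which held 108 counts against 9 and 6 in the other libraries, it was 1.29 at an adjusted p of 0.334. The stattic and vehicle libraries overlapped for Cdh5. Kdr had 2.16 ± 0.68 (SE) at an adjusted p of 0.0367 and lost the call in 5 of the 12 fits. Lum had 2.49 at an adjusted p of 0.277, Acta2 1.47 at 0.228, Pdgfrb 1.21 at 0.370, Vwf 0.96 at 0.183 and Fn1 0.06 at 0.962.

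The related lists gave 4 other endothelial markers higher in IL-10 than in vehicle, Esam and Tek among them, 4 other mural markers and 0 other fibroblast markers, with 1 fibroblast-list gene lower. That gene was Pdgfra, which fibroblasts share with oligodendrocyte progenitor cells, and the call was lost in 9 of the 12 fits. Leaving out vehicle replicate 1 took the endothelial count to 1, and leaving out vehicle replicate 3 took it to 2. For the fibroblast list, 1 gene was higher without stattic replicate 3, and for the mural list 1 was lower without IL-10 replicate 3. In stattic against vehicle 4 other endothelial and 4 other mural markers were higher, and the endothelial count was 2 without any 1 vehicle library, with 1 lower without stattic replicate 3. In the mural list 1 gene was lower without stattic replicate 1 or 3. Col1a2 was the 1 other fibroblast marker that was higher, and Pdgfra the 1 that was lower. The higher count was 0 without IL-10 replicate 2, hemin replicate 3, stattic replicate 3 or any 1 vehicle library, and 2 without hemin replicate 1 or stattic replicate 2. Of the small leucine-rich proteoglycans 2 were higher in each comparison, Ecm2 and Aspn. Of all genes tested, 14.7% were called higher in stattic and 12.1% in IL-10, each against vehicle.

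Markers of other cell types were summed beside these genes. The 11 microglia and macrophage markers summed to 73.8 to 163 CPM in stattic libraries, 25.0 to 58.2 CPM in IL-10 libraries and 50.1 to 163 CPM in hemin libraries, against 8.38 to 36.1 CPM in vehicle libraries. Of the 11, 10 passed the filter and 2 were higher in hemin than in vehicle, beside 11.7% of all genes tested. That count was 1 without hemin replicate 1 or vehicle replicate 2 or 3 and 4 without hemin replicate 3. Cd68, a lysosomal protein of macrophages, had a log2 fold change of 2.43 at an adjusted p of 0.00740 and stayed called in all 12 fits. In stattic against vehicle 5 of the 10 were higher, beside 14.7% of all genes tested. In IL-10 against vehicle 1 was higher, beside 12.1%. The 7 astrocyte markers summed to 920 to 3667 CPM in stattic libraries, 815 to 2201 CPM in IL-10 libraries and 1778 to 2556 CPM in hemin libraries, against 2127 to 5875 CPM in vehicle libraries. The 8 neuronal markers summed to 1117 to 1432 CPM in hemin libraries, against 852 to 1101 CPM in vehicle libraries. Of the 8, 3 were higher and 0 lower in hemin, in IL-10 and in stattic, each against vehicle. Their median differences in log2(CPM + 0.5) were 0.48, -0.35 and 0.37. The part of these cell types, and of the libraries that stood apart, in the values of the 10 genes was not tested.

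Per length, in the deposited FPKM values, the order of levels in hemin libraries was Fn1 at 31.1 ± 23.9, Acta2 at 7.04 ± 5.76, Pecam1 at 6.07 ± 2.83, Dcn at 5.13 ± 6.27, Pdgfrb at 2.88 ± 3.20, Lum at 1.85 ± 1.97, Cdh5 at 1.22 ± 0.0833, Kdr at 0.967 ± 0.542, Vwf at 0.447 ± 0.142 and Cldn5 at 0.0267 ± 0.0462 (SD, n = 3). In vehicle libraries the order was Fn1 at 23.4 ± 14.8, Acta2 at 1.22 ± 0.645, Pdgfrb at 0.417 ± 0.236, Vwf at 0.253 ± 0.162, Kdr at 0.203 ± 0.121, Pecam1 at 0.133 ± 0.0252, Lum at 0.103 ± 0.138, Cdh5 at 0.0867 ± 0.0814, Cldn5 at 0.0800 ± 0.0800 and Dcn at 0.0767 ± 0.0862. Below Fn1, every pair of neighbours in the vehicle order overlapped. In the hemin order the libraries of Fn1 and Acta2 did not overlap, nor did those of Vwf and Cldn5, and the other neighbours overlapped or met. Pecam1 thus stood in the sixth place in vehicle libraries and in the third place in hemin libraries. In both other groups Pecam1 had the second-highest mean after Fn1, at 4.91 ± 3.5 FPKM in stattic libraries and 4.21 ± 2.35 FPKM in IL-10 libraries, and its libraries overlapped those of Acta2 in both.

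The genes whose levels followed each of these genes most closely across the 12 libraries were found among 12922 genes, by the root mean square difference of centred log2(CPM + 0.5) values. For Pecam1 they were Ampd1, Hdc and Edn1, at 0.29, 0.36 and 0.38, beside a median of 2.02 over the genes searched. Edn1 encodes endothelin 1, a vasoconstrictor peptide of endothelium, and Hdc the enzyme that makes histamine. For Kdr they were Eomes, Tmem144 and Ttn at 0.34, 0.34 and 0.37, for Cdh5 Tfpi2, Cdo1 and Crabp1 at 0.44, 0.52 and 0.55, and for Vwf Asb5, Snx7 and Cpm at 0.31, 0.34 and 0.35. For Pdgfrb they were Nid1, Col4a2 and Cyp1b1 at 0.37, 0.43 and 0.52, and the first 2 of these encode basement membrane proteins. For Acta2 they were Gstt1, Gstm2 and Thbd at 0.52, 0.52 and 0.53, for Dcn Mmp9 and Colec12 at 0.43 and 0.47, and for Lum Col7a1, Col1a1 and Myadm at 0.42, 0.45 and 0.47. For Fn1 they were Col6a1, Sparc and Fstl1 at 0.35, 0.36 and 0.36, all 3 of which encode secreted matrix or matrix-associated proteins. The median over the genes searched was lower for the genes other than Pecam1, from 0.74 for Vwf and 1.07 for Fn1 to 1.45 for Dcn. These distances describe 12 libraries that share treatments and depth, and they carry no test.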

How the data were processed

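Values were analysed from 12 RNA sequencing libraries, 1 file each. The deposited expected counts, whose fractions show that shared reads were apportioned, and the deposited FPKM values were made by the authors; per the submitters' processing notes the tools included HISAT, Bowtie2, RSEM and StringTie, with no version or role given, and the genome build is not named in the sources used here. Whether counting used strand is not stated. Transcript lengths, deposited beside the counts, were used only for the length correction and trend. Each file lists only genes above 0, and an unlisted gene was taken as 0.

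Expected counts were rounded and tested with edgeR 4.0.16 (R 4.3.3): filterByExpr, TMM scaling and robust quasi-likelihood fits on all 12 libraries, with Benjamini-Hochberg adjustment over 13967 genes and calls at an adjusted p under 0.05. SE is the log2 fold change divided by the square root of the F statistic, intervals are 95%, and fitted fold changes carry edgeR's prior count. CPM use TMM library sizes; medians use a pseudocount of 0.5. Counting intervals and the limit of 3 counts cover counting error only. The fit was tested on simulated data. The alternatives were DESeq2 1.42.0, limma 3.58.1 on log2(FPKM + 1) and log2(FPKM + 0.1), other scalings, no filter, a length correction, a replicate block and leaving out libraries. Numbers were taken to pair groups where every same-numbered pair's deviations correlated above 0.1. That held for IL-10 with hemin (0.37, 0.17 and 0.61) and not for the other comparisons, hemin with vehicle among them (0.15, 0.078 and 0.32), so the numbers were taken to pair those groups alone, on the data and not on the labels; the block changed no call of the 10 genes there.

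The genes and lists were chosen with earlier results of these data known. Lists share genes, among them Tek, Flt1, Cnn1, Tagln, Myl9, Fbln1, Ogn, Omd, Pdgfra and Cspg4, so their counts are not separate. Named from each list were up to 4 genes with the smallest p in hemin against vehicle and up to 2 called in each other comparison; defining markers were named to check cell types, and Itga5 and Itgb1, as the fibronectin receptor, after their values were seen. Genes the rule names that are not reported here were left out of the text.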

Additional observations from a re-analysis of the deposited data

How the results depend on the processing

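Over 22 alternatives, 2495 of 2791 values of single genes kept their direction and side of the threshold, 195 lost the call, 46 gained it and 55 changed sign. Leaving out 1 library gave 2 to 6 of the 10 genes called in hemin against vehicle, 2 to 4 in IL-10 against vehicle, 1 to 4 in stattic against vehicle and 0 in the other 2 comparisons, and the counts of all genes called ran from 1309 to 4256, 1202 to 4227 and 1608 to 3864 against vehicle, from 0 to 1 in IL-10 against hemin, and stayed at 0 in stattic against IL-10.

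In hemin against vehicle, limma on log2(FPKM + 1) called 2 of the 10 genes with or without the filter. In stattic against vehicle it called 1 either way, limma on log2(FPKM + 0.1) called 2 and DESeq2 called 2. In IL-10 against hemin, no filter, the replicate block and the length correction each called 1 gene and DESeq2 called 3, none of the 10. Without hemin replicate 1 and stattic replicate 3 together, 4546 genes were called in IL-10 against vehicle. DESeq2 called Lum, Pdgfrb and Acta2 in hemin against vehicle, at adjusted p-values of 0.0165, 0.00625 and 0.00782, and gave no adjusted p for Cdh5 and Dcn in any comparison. With the replicate block, where the numbers were not taken to pair the samples, Lum and Acta2 passed in that comparison at 0.0100 and 0.0390, and Cdh5 passed in IL-10 against vehicle at 0.0187. The cause of these differences was not tested.

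The log2 fold changes that changed sign belonged to results that were not called. Without hemin replicate 1 and stattic replicate 3 together, Fn1 was -0.34 and Bgn -0.34 in hemin against vehicle, Acta2 was 0.29 and Fn1 0.25 in IL-10 against hemin, and Cdh5 was -1.96, Vwf -0.062 and Pdgfrb -0.23 in stattic against IL-10. In IL-10 against hemin, Vwf was 0.0016 with no filter and 0.011 with the replicate block. In stattic against IL-10, Cdh5 was -0.15 with limma on log2(FPKM + 0.1), Vwf was -0.024 with library totals and -0.015 with limma on log2(FPKM + 1) and no filter, and Fn1 was -0.020 with the replicate block, -0.34 with limma on log2(FPKM + 1) with or without the filter and -0.39 with the smaller pseudocount. Fn1 in IL-10 against vehicle was 0.083 with the replicate block, 0.10 with the length correction, 0.027 with limma on log2(FPKM + 1) with or without the filter and 0.047 with the smaller pseudocount. In stattic against vehicle Fn1 was -0.18 with library totals, -0.31 with limma on log2(FPKM + 1) with or without the filter and -0.34 with the smaller pseudocount.

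Leaving out 1 library gave the following ranges where a sign changed. In hemin against vehicle they were -0.34 to 0.96 for Fn1 and -0.34 to 2.57 for Bgn. In IL-10 against hemin they were -0.16 to 0.24 for Vwf, -1.17 to 0.29 for Acta2 and -0.99 to 0.24 for Fn1. In stattic against IL-10 they were -0.38 to 0.71 for Pecam1, -1.96 to 1.90 for Cdh5, -0.13 to 0.23 for Vwf, -2.37 to 2.71 for Lum, -0.23 to 1.43 for Pdgfrb, -1.37 to 0.17 for Acta2 and -0.69 to 0.62 for Fn1. Against vehicle they were -0.22 to 4.58 for Lum, -0.075 to 0.67 for Pdgfrb and -0.52 to 0.34 for Fn1 in IL-10, and -0.79 to 0.52 for Fn1 in stattic. With 3 libraries a group and vehicle counts below 10 for Pecam1, Cdh5, Dcn and Lum, depth limits how closely these fold changes are known.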
